A study of Mus musculus with 6 samples.

Results

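The platelet-derived growth factor (PDGF) family in the mouse consists of 4 ligand genes, Pdgfa, Pdgfb, Pdgfc and Pdgfd, and 2 receptor genes, Pdgfra and Pdgfrb. Every array probe whose single annotated gene symbol is one of these 6 genes was taken, which gave 7 probes for 6 of the 18069 genes with such a probe. RNA came from 6 early-passage cultures of mouse embryonic fibroblasts (MEFs), which are connective-tissue cells grown out of embryos, each culture from a different embryo and each on its own 1-colour array. The deficient cultures C4, C3 and B1 came from embryos whose Ing1 locus was inactivated by a gene-trap cassette, and H2, H3 and I2 were cultures of wild-type embryos, which the labels call littermates. Both genotypes were grown without a stated treatment, and the labels give neither strain nor embryonic day. The product of Ing1 binds methylated histone H3 through a PHD finger and takes part in Sin3-HDAC repressor complexes.

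PDGF ligands are secreted dimers. PDGF-A and PDGF-B are trimmed inside the cell before they are secreted, whereas PDGF-C and PDGF-D leave the cell as latent proteins whose growth factor domain is freed by proteases such as the plasminogen activators. The receptors are tyrosine kinases that pair when a dimer binds; PDGFR-alpha takes PDGF-A, PDGF-B and PDGF-C, and PDGFR-beta takes PDGF-B and PDGF-D. Fibroblasts are classical PDGF responders, and PDGF is a main mitogen of serum for them.

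The targeted gene was read by 1 probe (NM_011919). Its normalised intensity, in which the median probe of an array is 1, was 1.38, 0.930 and 1.39 in the deficient cultures C4, C3 and B1, against 11.7, 11.4 and 11.1 in wild-type H2, H3 and I2. The groups were far apart, with a log2 difference of -3.23 ± 0.19 (standard error, SE; limma, adjusted p = 0.000286). Good quality flags covered 55.5% to 59.0% of 34967 transcript probes on the deficient arrays and 56.0% to 62.1% on the wild-type arrays. Of the wild-type arrays, H3 stood apart: for 51.5% of 19520 probes its value was nearer to the deficient mean than to the mean of the other wild-type arrays, against 32.1% for H2 and 29.9% for I2. The Y-linked gene Eif2s3y read 0.408, 0.078 and 16.8 in C4, C3 and B1 and 16.3, 12.1 and 0.168 in H2, H3 and I2, so that B1, H2 and H3 had a high value and C4, C3 and I2 a low one. Xist, a marker of female embryos, had the reverse pattern, with 2.34, 1.63 and -0.002 in C4, C3 and B1 and 0.23, 0.12 and 4.35 in H2, H3 and I2. By these genes B1, H2 and H3 read as male and C4, C3 and I2 as female, although Kdm5d did not follow this split.

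Promoter sequence from RefSeq was matched for 4 of the 6 genes, and the 250 bases before the annotated start are shown for 1 ligand and 1 receptor described below, the Pdgfa window being the one of its 2 that lies further upstream. Both lie on chromosome 5 of GRCm38.p6, at chr5:138994945-138995194 on the minus strand for Pdgfa and at chr5:75152001-75152250 on the plus strand for Pdgfra. They are written 5′ to 3′ on the strand of the gene, with matches to GGGCGG, the core of the GC box bound by SP1-family factors, in capitals on either strand (CCGCCC on the opposite strand).
Pdgfa: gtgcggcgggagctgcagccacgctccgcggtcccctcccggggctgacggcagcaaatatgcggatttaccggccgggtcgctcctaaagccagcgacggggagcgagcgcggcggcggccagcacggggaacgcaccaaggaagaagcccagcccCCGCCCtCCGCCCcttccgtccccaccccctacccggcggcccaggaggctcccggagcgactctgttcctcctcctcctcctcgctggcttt
Pdgfra: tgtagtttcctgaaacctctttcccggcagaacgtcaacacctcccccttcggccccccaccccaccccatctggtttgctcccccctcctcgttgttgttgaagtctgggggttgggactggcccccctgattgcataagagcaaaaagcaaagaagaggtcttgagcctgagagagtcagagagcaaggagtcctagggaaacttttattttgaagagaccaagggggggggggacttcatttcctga
The Pdgfa window held 2 such matches, starting 93 and 86 bases before the start, and the Pdgfra window held none. Of 32851 windows of this length in the table, 32.7% had at least 1 match. Neither window matched GCGGGGGCG, an EGR-family motif present in 2.57% of windows, or TATAAA, present in 12.4%; none of the 3 motifs overlapped another in the windows shown.

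Of the 7 PDGF probes, 6 were flagged good in all 3 cultures of 1 or both genotypes and were tested; the exception was the probe of Pdgfc. After adjustment over all 19575 tested probes, 1 of the 6 differed between the genotypes, that of Pdgfb, which fell. Over all tested probes, 6.57% passed the adjusted threshold of 0.05, 4.94% with a higher and 1.63% with a lower value in the deficient cultures. At an unadjusted p under 0.05 there were 5 of the 6 PDGF probes, against 26.2% of all probes. In 4 of the 6 the groups did not overlap, 3 with lower and 1 with higher values in the deficient cultures, against 31.4% of all probes, 11.3% lower and 20.1% higher. By the selection that the labels describe, here called the methods' t-test (unadjusted, with a ratio over 2 or under 0.5), 1 of the 6 was selected, again Pdgfb, against 3.1% of all probes and 0.72% selected as lower. These members were proposed with earlier results in view, so the counts are a description. The median log2 difference of all tested probes was 0.02. In RNA from whole cultures, fewer cells of a type and less RNA per cell cannot be told apart.

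**Figure D1:**
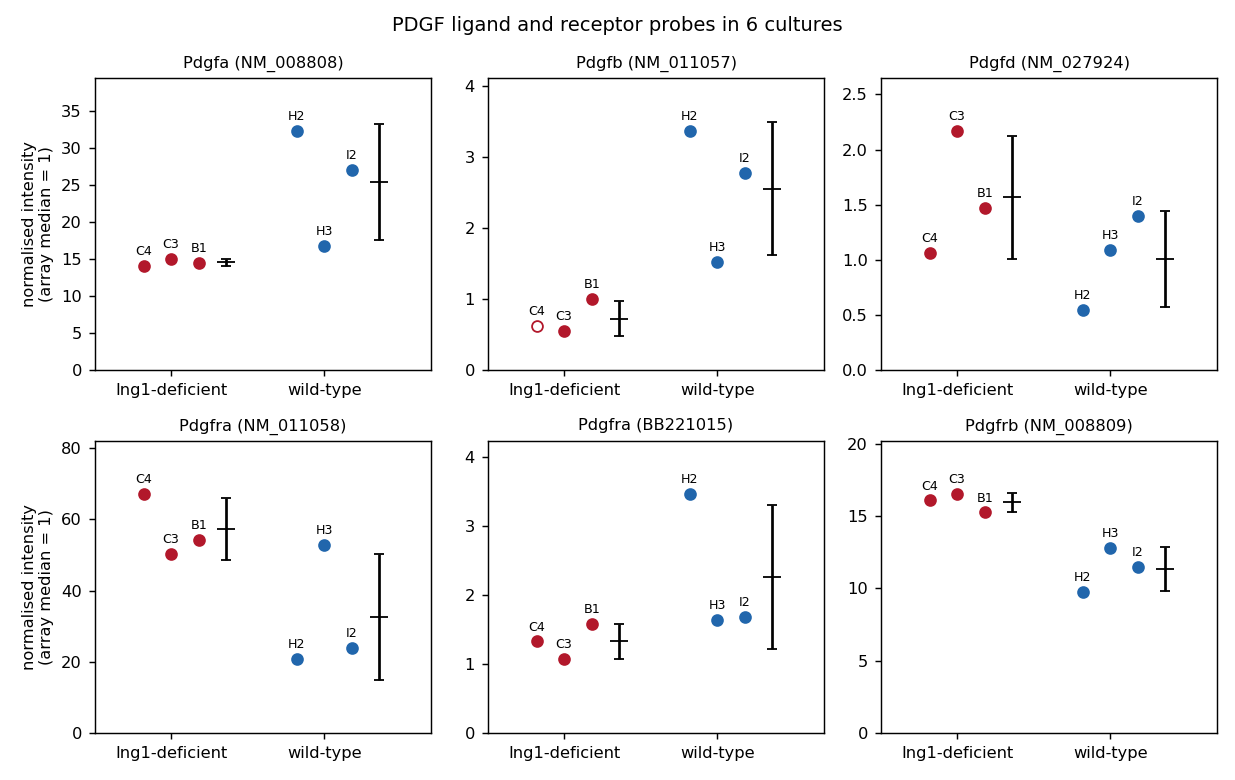
Normalised intensity (array median 1, linear axes that start at 0) of the 6 tested PDGF probes in each culture, with the Ing1-deficient cultures in red on the left and the wild-type cultures in blue on the right of each panel. Black bars are means ± SD (n = 3), the open point is a spot flagged near background, and the 3 deficient cultures lie below all wild-type cultures for Pdgfa, Pdgfb and the BB221015 probe of Pdgfra and above them for Pdgfrb.

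Pdgfb, whose product binds both receptors and, as a dimer, recruits pericytes to vessels, was the one PDGF gene past the threshold. Its probe (NM_011057) read 0.625, 0.550 and 1.01 in the deficient cultures C4, C3 and B1, against 3.37, 1.53 and 2.78 in wild-type H2, H3 and I2. Every deficient value was below every wild-type value, and the lowest wild-type value was that of H3. The means were 0.728 ± 0.246 in deficient and 2.56 ± 0.941 in wild-type cultures (SD, n = 3 each). On the log2 scale Pdgfb fell by 1.77 ± 0.32 (SE; limma, 95% interval -2.48 to -1.06, adjusted p = 0.0262), which is 3.41-fold lower. With normexp background correction, which here added an offset of 50 intensity units before the log2, the difference was -0.65 (limma, adjusted p = 0.0513). This was smaller than the differences of Pdgfa (-0.74) and Pdgfra NM_011058 (0.79) in that fit, whose brighter spots the offset compresses less. With the floor at 1.14 the Pdgfb difference was -1.09 (limma, adjusted p = 0.162).

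The Pdgfb signal was dim in the deficient cultures, and the probe entered the test through the wild-type cultures, where all 3 spots were flagged good. Above the local background its spots stood 11.8, 12.1 and 20.1 intensity units in C4, C3 and B1, against 65.3, 33.1 and 70.6 units in H2, H3 and I2. C4 was flagged near background, and the value of C3 lay under the floor of 0.57 to which low values were set, so that the difference is understated by the floor. With 1 array left out the log2 difference stayed between -2.11 and -1.53, but the probe passed the threshold only without H3 (adjusted p = 0.0043) and in none of the other 5 fits, where the adjusted p reached 0.118. Among the arrays with high Eif2s3y, Pdgfb was 1.01 in deficient B1 and 3.37 and 1.53 in wild-type H2 and H3, and among those with low Eif2s3y it was 0.625 and 0.550 in deficient C4 and C3 and 2.78 in wild-type I2. This split leaves 1 array on a side and was not tested. With Eif2s3y as a covariate the Pdgfb difference was -1.68 (limma, adjusted p = 0.0740). That fit gives a difference adjusted for the Eif2s3y signal, and no other test of the part of embryo sex was run.

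Pdgfa, the ligand that acts through PDGFR-alpha, was read by 1 probe (NM_008808). Its values were 14.1, 15.1 and 14.5 in C4, C3 and B1, against 32.3, 16.8 and 27.1 in H2, H3 and I2. The deficient cultures lay close together and below all wild-type cultures, of which H3 was just above them. With means of 14.6 ± 0.481 in deficient and 25.4 ± 7.87 in wild-type cultures (SD, n = 3 each), the log2 difference was -0.75 ± 0.23 (SE; 95% interval -1.28 to -0.23) and did not pass (limma, adjusted p = 0.0836). With 1 array left out the difference ran from -1.02 (without H3, adjusted p = 0.0089) to -0.55 (without H2, adjusted p = 0.240), and only the fit without H3 passed.

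The log2 ratio of Pdgfb to Pdgfa signal was also compared within each array, since this cancels the scaling of an array. It was -4.50, -4.73 and -3.84 in C4, C3 and B1, against -3.26, -3.46 and -3.29 in H2, H3 and I2. All 3 deficient ratios were below all wild-type ratios, with means of -4.36 ± 0.459 in deficient and -3.34 ± 0.110 in wild-type cultures (SD). The difference of -1.02 had a two-sided exact permutation p of 0.1, the smallest that 3 against 3 can give. With normexp background correction and its offset of 50 it was 0.091 in place of -1.02 (exact permutation p = 0.7). An added constant shrinks log2 differences of dim spots most, and Pdgfb was dimmer than Pdgfa. The sign of this ratio difference thus depends on the correction and its offset together, which were not run apart.

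The later-found ligands, which carry a CUB domain and are secreted in latent form, were read by spots near the array median or masked. Pdgfd, a PDGFR-beta ligand, read 1.06, 2.17 and 1.47 in C4, C3 and B1 (NM_027924), against 0.543, 1.09 and 1.40 in H2, H3 and I2. The groups overlapped, with means of 1.57 ± 0.559 in deficient and 1.01 ± 0.435 in wild-type cultures (SD, n = 3 each). Its log2 difference of 0.65 ± 0.35 (SE) had a 95% interval of -0.14 to 1.45 and did not pass (limma, adjusted p = 0.274). The Pdgfc spot (NM_019971) was masked by the authors' software on 5 of the 6 arrays; the sixth, deficient B1, had a value of 0.231 flagged near background. Whether Pdgfc differed could therefore not be tested.

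**Figure D2:**
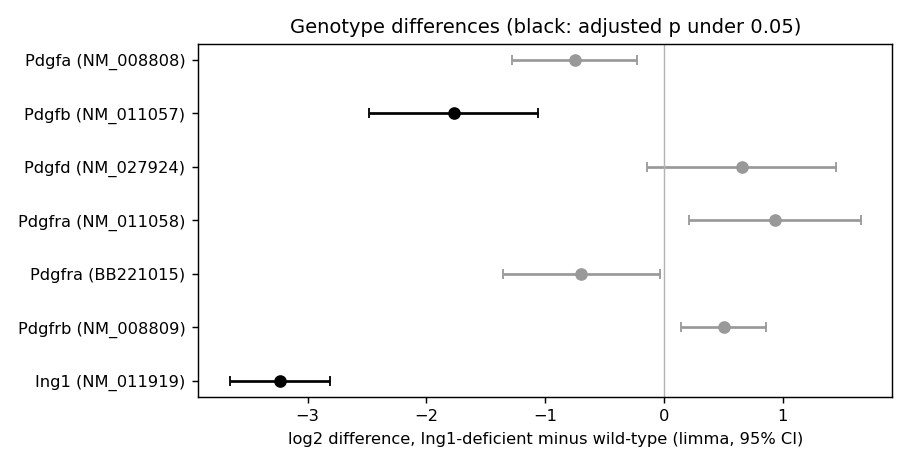
Log2 difference (Ing1-deficient minus wild-type, limma) of the tested PDGF probes and of Ing1, with 95% intervals as bars (n = 3 per genotype). Black points passed an adjusted p of 0.05; among the PDGF probes this was Pdgfb alone, at -1.77.

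Both receptor genes had a probe with higher mean signal in the deficient cultures, and neither passed the threshold. Pdgfrb, the receptor for PDGF-B and PDGF-D that marks pericytes and many fibroblasts, read 16.1, 16.6 and 15.3 in C4, C3 and B1 (NM_008809), against 9.75, 12.8 and 11.5 in H2, H3 and I2. The 2 genotypes did not overlap and the deficient cultures were tightly grouped, with means of 16.0 ± 0.656 in deficient and 11.3 ± 1.52 in wild-type cultures (SD, n = 3 each). The log2 difference was 0.50 ± 0.16 (SE; 95% interval 0.14 to 0.86; limma, adjusted p = 0.0886). With 1 array left out it ran from 0.40 (without H2, adjusted p = 0.241) to 0.59 (without H3, adjusted p = 0.0490), and only the fit without H3 passed.

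Pdgfra, the receptor for PDGF-A and a marker of embryonic mesenchyme, had 2 probes that disagreed in sign. The probe to its reference transcript (NM_011058) read 67.2, 50.4 and 54.3 in C4, C3 and B1, against 20.8, 52.9 and 24.0 in H2, H3 and I2. H2 and I2 lay well below all deficient cultures, whereas H3 lay between the deficient values, so that the groups overlapped. The means were 57.3 ± 8.79 in deficient and 32.6 ± 17.7 in wild-type cultures (SD, n = 3 each), with a log2 difference of 0.93 ± 0.32 (SE; 95% interval 0.21 to 1.66; limma, adjusted p = 0.108). With 1 array left out it ran from 0.68 (without H2, adjusted p = 0.308) to 1.35 (without H3, adjusted p = 0.0059), and only the fit without H3 passed.

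The second Pdgfra probe was designed on an expressed sequence tag (BB221015). It read 1.33, 1.08 and 1.57 in C4, C3 and B1, against 3.47, 1.64 and 1.68 in H2, H3 and I2. Deficient values were all below wild-type values, but H3 and I2 were only just above B1. The log2 difference was -0.70 ± 0.29 (SE; 95% interval -1.35 to -0.04; limma, adjusted p = 0.170), and it was -0.34 without H2. Averaged over both probes the Pdgfra difference was 0.12 (adjusted p = 0.729). Where in the transcript the probes lie is not given in the sources used here.

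Within arrays the log2 ratio of Pdgfra (NM_011058) to Pdgfrb signal was 2.06, 1.61 and 1.83 in C4, C3 and B1, against 1.09, 2.05 and 1.06 in H2, H3 and I2. H3 again lay among the deficient cultures. The means of 1.83 ± 0.228 in deficient and 1.40 ± 0.561 in wild-type cultures (SD, n = 3 each) differed by 0.43, less than the wild-type spread (two-sided exact permutation p = 0.3).

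**Figure D3:**
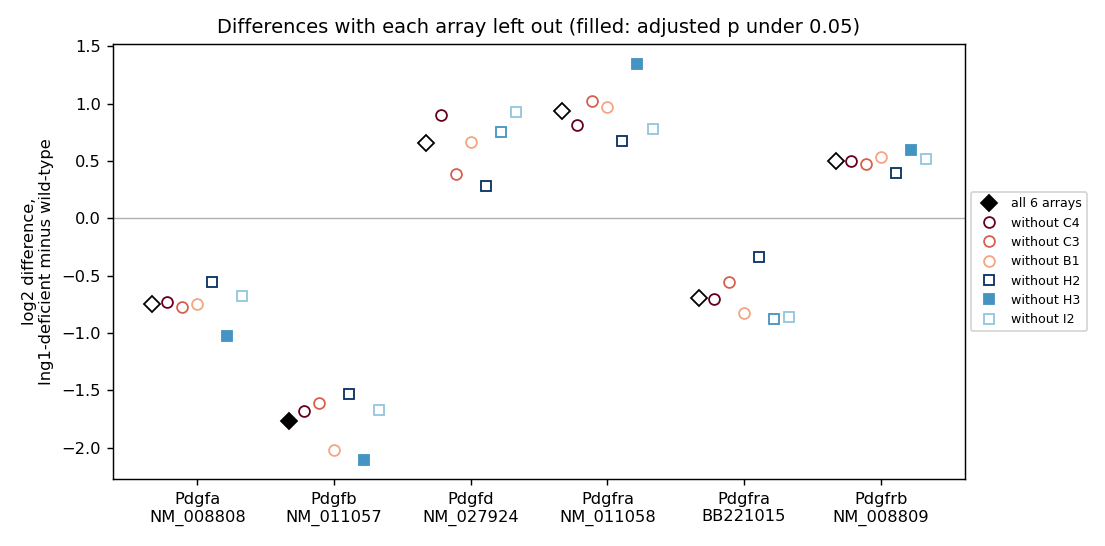
Log2 difference (Ing1-deficient minus wild-type) of each tested PDGF probe with all 6 arrays (diamond) and with each deficient (circles) or wild-type (squares) array left out. Filled symbols passed an adjusted p of 0.05, and no difference changed sign. Leaving out H3 gave -1.02 for Pdgfa, -2.11 for Pdgfb, 1.35 for Pdgfra NM_011058 and 0.59 for Pdgfrb, all filled. In that fit 2726 of 19575 tested probes passed, against 1286 with all arrays.

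Genes whose signal over the 6 arrays was most like that of a PDGF probe were ranked by Pearson's r on the log2 scale among 13467 probes, as a description without a test, since the arrays fall into 2 genotypes and such profiles are common. For Pdgfb these were Fbxw24 (r = 0.999), Zkscan17 (0.995) and Yipf4 (0.995), and 184 probes exceeded 0.95. Pdgfa was nearest to Rabl6, Map3k20 and Rab10, with 312 probes over 0.95. Pdgfra (NM_011058) was nearest to Insyn1, 1110018N20Rik and Abat, with 249 probes, and its other probe to Ccdc59, Ino80e and Phkg1, with 66. Pdgfrb was nearest to Exoc8, Gas2l1 and Plec, with 487 probes. Pdgfd had the fewest probes over 0.95, with 27, and was nearest to Ctnnd1 (0.986), Pappa and Rhbdl1.

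The surrounding pathway was described with 7 lists of genes, of which 95 were tested, each through its tested probe with the highest mean. Of these, 10 passed the adjusted threshold, 9 with higher and 1 with lower values in the deficient cultures, against 7.63% of all tested genes, 6.02% higher and 1.61% lower. With H3 left out 21 passed, in a fit where 2726 of 19575 tested probes did, against 1286 with all arrays. With any other single array left out 0 to 3 passed (0 without B1, where 31 had an unadjusted p under 0.05), against 5 to 379 of all tested probes. The median log2 difference over all tested genes was 0.07.

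Among 6 tested genes for proteases that can process PDGF ligands, none passed (limma; 3 at an unadjusted p under 0.05; none by the methods' t-test after adjustment), and the median difference was 0.16. Plat, tissue plasminogen activator, which activates PDGF-C, averaged 5.18 ± 0.384 in deficient and 3.62 ± 0.467 in wild-type cultures (SD, n = 3 each; adjusted p = 0.0823). Pcsk7, a proprotein convertase, had a log2 difference of 0.53 (adjusted p = 0.0916).

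None of 9 tested co-receptors and binding partners passed either (limma; 2 at an unadjusted p under 0.05; none by the methods' t-test after adjustment), with a median of 0.00. Nrp1, a co-receptor for several growth factors, read 10.8, 12.7 and 12.6 in C4, C3 and B1, against 3.78, 9.64 and 6.30 in H2, H3 and I2. The groups did not overlap, H3 again being the wild-type culture nearest to the deficient ones, and the log2 difference was 0.97 ± 0.30 (SE; adjusted p = 0.0824). Itgav, the integrin alpha-V subunit, had a log2 difference of 0.58 (adjusted p = 0.0684).

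Directly downstream of the receptors, 3 of 24 tested genes rose and none fell, with a median of 0.01. At an unadjusted p under 0.05 (limma) there were 6 of the 24, against 26.2% of all tested probes. By the methods' t-test after adjustment none of the 24 passed. Pik3r1, the p85-alpha regulatory subunit of phosphoinositide 3-kinase that docks on phosphorylated PDGF receptors, read 31.5, 24.3 and 23.6 in C4, C3 and B1, against 6.36, 6.99 and 8.90 in H2, H3 and I2. All deficient values were far above all wild-type values, H3 included, and Pik3r1 rose by 1.84 ± 0.19 on the log2 scale (SE; limma, adjusted p = 0.0063). When single arrays were left out it passed in 5 of 6 fits, the exception being that without B1 (1.91, adjusted p = 0.0584). Pik3r2, the p85-beta subunit, rose by 0.97 ± 0.22 (limma, adjusted p = 0.0386). Its spot in I2 was irregular, so the probe entered the test through the deficient cultures, where it was high. Rasa1, the Ras GTPase-activating protein that binds PDGFR-beta, rose by 0.70 ± 0.16 (limma, adjusted p = 0.0394), with 0.72 at its other probe. Both Pik3r2 and Rasa1 passed only without H3 among the fits that leave out an array.

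In the Ras-MAPK and AKT relay none of 8 tested genes passed (limma; 4 at an unadjusted p under 0.05; none by the methods' t-test after adjustment), and the median was 0.27. Srf, the serum response factor, had a log2 difference of 0.75 (adjusted p = 0.0707), and Map2k1, the kinase MEK1, one of 0.44 (adjusted p = 0.120).

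Negative regulators of receptor signalling had 3 of 13 tested genes that rose and 1 that fell, with a median of 0.51. At an unadjusted p under 0.05 (limma) there were 9 of the 13, against 26.2% of all tested probes. By the methods' t-test after adjustment none of the 13 passed. Dusp6, a phosphatase that inactivates ERK and is itself induced by ERK signalling, read 6.02, 4.96 and 6.03 in C4, C3 and B1, against 1.31, 3.42 and 1.43 in H2, H3 and I2. It rose by 1.60 ± 0.33 (SE; adjusted p = 0.0324) with groups that did not overlap. Gas1, a growth-arrest membrane protein, rose by 1.23 (adjusted p = 0.0458) and Ptpn1, the non-receptor tyrosine phosphatase PTP1B, by 0.65 (adjusted p = 0.0452). Dusp4, another MAPK phosphatase, fell by 1.09 (adjusted p = 0.0472), while its other probe had a difference of 0.99 and the average of its probes one of -0.05 (adjusted p = 0.885). Among the fits that leave out an array, these 4 passed only without H3.

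Of 24 tested genes that PDGF or serum induces in mouse fibroblasts, 3 rose and none fell, with a median of 0.49. At an unadjusted p under 0.05 (limma) there were 10 of the 24, against 26.2% of all tested probes. By the methods' t-test after adjustment none of the 24 passed. Ccl2, a monocyte chemokine first cloned as a PDGF-induced gene of mouse fibroblasts, read 65.2, 70.5 and 63.5 in C4, C3 and B1, against 8.99, 37.9 and 13.5 in H2, H3 and I2. It rose by 2.00 ± 0.43 (SE; adjusted p = 0.0350), and the wild-type values spread widely, with H3 highest. Ptgs2, the inducible cyclooxygenase, averaged 5.41 ± 0.869 in deficient and 2.22 ± 0.164 in wild-type cultures (SD, n = 3 each) and rose by 1.28 ± 0.17 (adjusted p = 0.0164). Ccnd1, the G1 cyclin D1, rose by 1.02 ± 0.24 (limma, adjusted p = 0.0428). Its spot was flagged near background in H2, so the probe entered the test through the deficient cultures, where it was high. When arrays were left out singly, Ccl2 and Ccnd1 passed only without H3 and Ptgs2 passed without C3 or H3.

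Related class III receptors, their ligands and the VEGF branch had none of 11 tested genes past the threshold (limma; 1 at an unadjusted p under 0.05; none by the methods' t-test after adjustment), with a median of -0.03. Vegfa, the main vascular growth factor of the branch, averaged 4.15 ± 0.570 in deficient and 7.21 ± 1.98 in wild-type cultures (SD, n = 3 each; log2 difference -0.77, adjusted p = 0.0736), and Vegfc, a lymphatic growth factor, had a difference of -0.46 (adjusted p = 0.223).

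**Figure D4:**
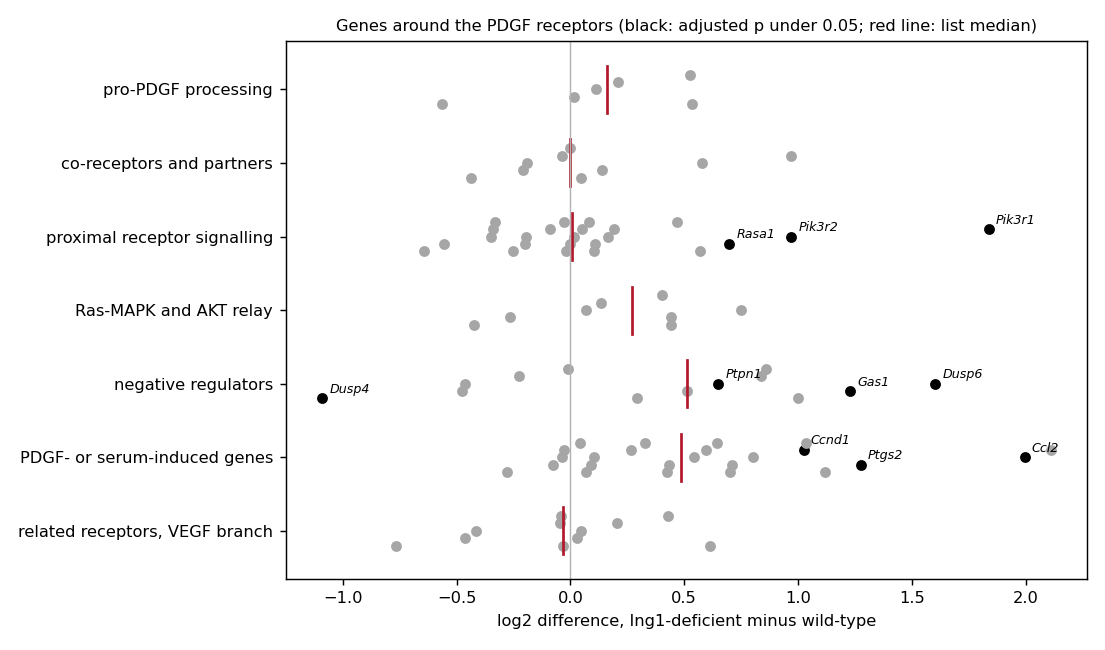
Log2 difference (Ing1-deficient minus wild-type) of every tested gene in the 7 lists around the PDGF receptors, 1 point per gene, spread vertically for legibility. Black named genes passed an adjusted p of 0.05 (10 of 95 tested, Dusp4 being the one that fell), and red lines are list medians, from -0.03 to 0.51.

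Markers of cells that make or answer PDGF were set beside these values; the marker genes named in this paragraph were chosen after their values were seen, and over all tested genes 7.63% passed, 6.02% with higher values in the deficient cultures. Summed intensity of 14 fibroblast markers was 1254 to 1387 in deficient and 1059 to 1332 in wild-type cultures, and 2 of 14 tested rose, Lum and Thy1; with 1 array left out, Lum passed in 1 of 6 fits and Thy1 in 0. Platelets and macrophages are sources of PDGF-B. Of 3 tested megakaryocyte and platelet markers 2 rose, Ppbp and Gp1bb, the summed signal of 8 being 13.3 to 22.5 in deficient and 6.99 to 12.6 in wild-type cultures, and Itga2b, Gp9, Gp5 and Treml1 had no good flag on any array. With 1 array left out, Ppbp passed in 2 of 6 fits and Gp1bb in 1. Gp1bb entered the test through the deficient cultures, where it was high; its wild-type spots in H3 and I2 were flagged near background, and its difference ran from 0.08 to 2.44 over the alternatives. Of 11 tested macrophage markers 3 rose, C1qa, C1qb and Mrc1, with a summed signal of 14 genes of 64.4 to 186 in deficient and 31.7 to 70.8 in wild-type cultures, and Ptprc had no good flag on any array. With 1 array left out, C1qa passed in 1 of 6 fits, C1qb in 3 and Mrc1 in 2. C1qa did not pass with quantile normalization (limma, adjusted p = 0.0618). Mrc1 likewise entered through the deficient cultures, with wild-type values of 0.388, 0.608 and 0.541 in H2, H3 and I2, of which H2 and H3 were flagged near background. Endothelial cells are another source of PDGF-B; Pecam1, Cdh5, Cldn5, Sox17 and Sox18 had no good flag on any array, none of 5 tested endothelial markers passed (limma; 0 at an unadjusted p under 0.05; none by the methods' t-test after adjustment), and the sums over 13 markers were 11.4 to 12.4 in deficient and 10.6 to 12.2 in wild-type cultures. Of 11 tested pericyte and smooth muscle markers 1 rose, Myh11 (9.09%), which passed in 0 of 6 fits with an array left out (lowest adjusted p = 0.0520) and not with quantile normalization (adjusted p = 0.0659); the sum over 14 was 716 to 763 in deficient and 443 to 737 in wild-type cultures, the lowest being H3. The groups did not overlap for 5 of 11 tested macrophage markers and 2 of 3 tested platelet markers, against 31.4% of all tested probes. The list medians were 1.11 and 0.92, against 0.07 for all tested genes. The macrophage sums overlapped, and Lyz2, their largest part, overlapped too, with 25.2 in C4 against 27.1 in H2. All deficient cultures had a higher platelet sum than any wild-type culture, though narrowly, at 13.3 or more against 12.6 or less. Not every platelet marker was higher. Pf4, a large part of that sum, overlapped, with 6.02, 17.3 and 7.75 in C4, C3 and B1 against 8.32, 4.09 and 3.49 in H2, H3 and I2 (limma, adjusted p = 0.204). Gp6, dim and not tested, read 0.319, 0.363 and 0.244 in C4, C3 and B1 against 0.390, 0.622 and 0.521 in H2, H3 and I2. By the methods' t-test after adjustment no gene of any marker list passed. The part of any other cell type in the PDGF differences was not tested.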

How the data were processed

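Total RNA of 6 cultures, 3 Ing1-deficient and 3 wild-type, was hybridised to 1-colour CodeLink mouse arrays, per the labels. Spots were quantified with CodeLink Expression Analysis 4.1.0.29054, per the file headers. The deposited normalised intensity is the spot mean minus local background, divided by the array median, and the series table holds the same values. Masked spots were treated as missing. Values under 0.57, the median over arrays of the percentile 1 of good spots, were set to 0.57 and log2 was taken. The 19575 probes flagged good in all 3 cultures of 1 or both genotypes were compared with limma 3.58.1 in R 4.3.3 (two-sided, Benjamini-Hochberg over all tested probes, threshold 0.05; random block with statmod 1.5.0), after a check on simulated data. GEO's platform annotation gave 1 symbol for 21615 probes, several for 681 and none for 12671, and RefSeq held 21487 of the first. Named were all PDGF probes, Ing1, up to 6 genes past the threshold per list (or the 2 with the lowest p), and 3 genes most like each PDGF probe. The members and lists were chosen with earlier results of these data known. The methods' t-test is the Student test stated in the labels, at a ratio over 2 or under 0.5. The number of arrays limits the precision. Promoter windows are RefSeq's, on GRCm38.p6; the build behind the authors' probe annotation is not given in the sources used here.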

Additional observations from a re-analysis of the deposited data

How the results depend on the processing

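No paired analysis was run, as the genotypes share only 1 replicate number, 3 (C3 and H3), and no leading letter. What the letters stand for is not given in the sources used here. As no letter spans both genotypes, differences between letters and between genotypes cannot be fully told apart. No PDGF probe changed sign under any alternative. Pdgfb passed in 9 of 20 and could not be tested with a good flag required on all 6 arrays. This count overstates its stability, since the series table repeats the main values and the average over probes uses the same 1 Pdgfb probe. It also includes the unadjusted selection and the fits with array weights or a random block, described below. Pdgfb did not pass with normexp at an offset of 50 (-0.65, adjusted p = 0.0513) or a floor of 0.01 (-1.79, 0.0531) or 1.14 (-1.09, 0.162). Nor did it pass with no flag filter (-1.77, 0.223), Eif2s3y as a covariate (-1.68, 0.0740) or the methods' t-test after adjustment (-1.77, 0.182). Under the methods' own unadjusted selection, 606 probes (3.1%) and, of the PDGF probes, Pdgfb passed. With array weights, Pdgfa (-0.88), Pdgfra NM_011058 (1.17) and Pdgfrb (0.45) also passed; with the leading letter as a random block, Pdgfa (-0.69), Pdgfd (0.90), Pdgfra NM_011058 (0.83), Pdgfra BB221015 (-0.95) and Pdgfrb (0.54) did. In those fits 8160 and 12901 of 19575 tested probes passed, and the block correlation was -0.886. The weights were 0.335, 0.741 and 1.94 for C4, C3 and B1 and 0.44, 0.362 and 13 for H2, H3 and I2. The weighted wild-type mean therefore rested almost wholly on I2. The Pdgfb to Pdgfa ratio difference turned to 0.091 with normexp and its offset of 50.

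With each array left out, differences ran from -1.02 to -0.55 for Pdgfa, -2.11 to -1.53 for Pdgfb, 0.28 to 0.93 for Pdgfd, 0.68 to 1.35 for Pdgfra NM_011058, -0.88 to -0.34 for Pdgfra BB221015 and 0.40 to 0.59 for Pdgfrb. The ratio difference ran from -1.28 to -0.83 for Pdgfb to Pdgfa and from 0.26 to 0.75 for Pdgfra to Pdgfrb. The count of probes past the threshold, 1286 with all arrays, ran from 5 (without B1, 4114 at an unadjusted p under 0.05) to 2726 (without H3), and was 52 without C4, 379 without C3, 24 without H2 and 17 without I2. It was 739 with quantile normalization (449 higher, 290 lower, against 967 and 319), 749 with cyclic loess, 575 with normexp, 275 and 191 with the floors of 0.01 and 1.14, 20 with no flag filter, 23 with the covariate and 7 with the adjusted t-test. Pathway genes past the threshold numbered 10, 3 with quantile normalization and 0 to 21 with an array left out (31 at an unadjusted p under 0.05 where it was 0, without B1); marker genes numbered 8, 4 with quantile normalization and 0 to 8 with an array left out. The causes were not tested. Dim signal limits Pdgfb and Pdgfd, and masking limits Pdgfc.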
